A study of Mus musculus with 36 samples.

Results

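The comparison was of N4bp1 knockout (KO) with wild-type (WT) mouse macrophages after 3 h of R837, with no actinomycin D added. The genotype and treatment labels put 6 of the 36 RNA-seq libraries of the study in these groups, 3 KO and 3 WT. R837, also known as imiquimod, is a small-molecule agonist of the endosomal Toll-like receptor TLR7. The macrophages were grown from C57BL/6N marrow of femurs and tibiae in M-CSF, and per the labels the 3 libraries of a group were cultures of 3 individual mice. All 6 cultures received R837 for 3 h, and no macrophages without R837 were analysed here. Every value is therefore a difference between genotypes among R837-treated cells, not an induction by R837. The other 30 libraries held the same genotypes after 7 h of R837, or after 3 h of R837 and then actinomycin D (ActD, a blocker of transcription) for 0.5, 1, 2 or 4 h. The strain statement of the labels names wild-type mice and stands beside the KO samples too. No source used here gives the knockout allele, the deleted exons or the age of the mice.

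N4BP1 is a cytoplasmic protein with a NYN-type ribonuclease domain, related to Regnase-1, that restrains inflammatory cytokine output in macrophages and is cleaved by caspase-8. TLR7 senses single-stranded RNA in endosomes and signals through the adaptor MyD88 and IRAK kinases to the IkB kinase (IKK) complex. IKK marks the inhibitory IkB proteins for degradation, which frees NF-kB to enter the nucleus and switch on cytokine genes as well as its own inhibitors. Many of the induced mRNAs carry AU-rich elements or stem-loops in the 3′ untranslated region (UTR), through which decay factors shorten their life.

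N4bp1 itself (chr8:86808160-86885258, minus strand, GRCm38) was measured first. It had 86.0, 84.98 and 81.3 CPM in KO libraries, against 125, 147 and 128 CPM in WT libraries, where CPM are counts per M counts after TMM normalization. The KO libraries all lay below the WT libraries (log2 fold change -0.67 ± 0.08, adjusted p = 1.08e-08 in edgeR's quasi-likelihood test), so the transcript was reduced and not absent. Fold changes are given as log2 of KO over WT ± standard error, and adjusted p is by the Benjamini-Hochberg method over all genes tested. Reads from exons outside a deletion would still be counted.

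The 6 libraries held 23.3 to 31.9 M gene counts. The first principal component of the 6 libraries (45.4% of the variance) put the 3 KO libraries on one side and the 3 WT libraries on the other. Pairwise correlations of log2 levels were 0.991 to 0.993 within a genotype and 0.984 to 0.989 between genotypes, a description across genes. Macrophage markers were abundant in every library: the summed level of the 16 markers tested was 64780, 69287 and 70224 CPM in KO and 69602, 71441 and 72164 CPM in WT. Of the 4 Y-linked genes counted, all were detected in every library, and Xist had at most 1 count, so all 6 libraries were of male cells.

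Replicate 1 of KO stood apart in 2 ways. First, it was high in genes of neutrophil granules, which granulocyte precursors transcribe. Ctsg, encoding cathepsin G, had 23.7, 5.06 and 3.21 CPM in KO libraries, against 1.81, 2.79 and 2.95 CPM in WT libraries. Elane, encoding neutrophil elastase, had 17.4, 4.69 and 4.98 CPM in KO libraries, against 2.40, 2.37 and 3.07 CPM in WT libraries, and Prtn3, encoding proteinase 3, had 18.7, 9.45 and 8.93 CPM in KO libraries, against 6.42, 5.68 and 5.96 CPM in WT libraries. In all 3 genes replicate 1 of KO lay well above every other library, whereas for Mpo, encoding myeloperoxidase, it was not, with 14.4, 12.5 and 13.4 CPM in KO libraries, against 8.74, 9.96 and 5.39 CPM in WT libraries. The calls of Ctsg, Elane and Prtn3 ended without replicate 1 of KO, and that of Mpo held, though not when replicate 3 of WT was left out too. Second, the KO libraries differed from the WT libraries along gene width, the summed exon length given in the deposited files. With the genes in 5 classes of equal size by width, the median log2 fold change in the shortest class was -0.16, with 4.29% of genes higher and 18.4% lower in KO. In the longest class it was 0.16, with 26.3% higher and 4.55% lower. Replicate 1 of KO and replicate 3 of WT lay at the ends of this trend, with medians of -0.17 and 0.15 in the shortest class and 0.17 and -0.13 in the longest class, relative to the mean of the 6 libraries. Replicate 3 of KO showed little of it (0.02 and -0.01). Of 264 genes followed through the alternative settings, all called but Il12b, 10 lost their call with this trend removed and 50 lost it without these 2 libraries together.

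**Figure D1:**
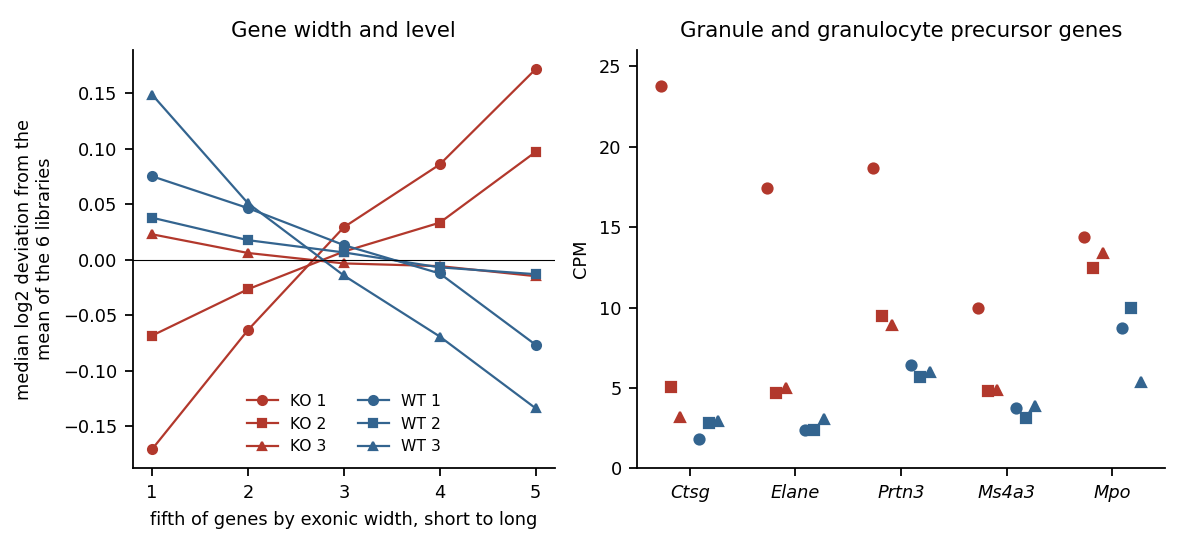
Left, the median log2 deviation of each library from the mean of the 6 libraries (vertical axis) in 5 classes of genes by exonic width, short to long (horizontal axis). Right, the level in CPM of 4 granule genes and of Ms4a3, a gene of granulocyte precursors, in each library. KO libraries are red and WT libraries blue, with replicates 1, 2 and 3 as circles, squares and triangles. Replicate 1 of KO runs from -0.17 to 0.17 on the left, and on the right it is the highest point for Ctsg, at 23.7 CPM.

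Of 13748 genes tested, 3818 (27.8%) differed between KO and WT at an adjusted p below 0.05 in edgeR's quasi-likelihood test. Of all genes tested, 2087 (15.2%) were higher and 1731 (12.6%) were lower in KO. Most differences were small: the median log2 fold change was 0.40 among the higher and -0.36 among the lower genes, and 202 and 77 genes passed 2-fold. The median over all genes tested was 0.01. The 3 KO libraries lay above all 3 WT libraries in 19.2% of genes tested and below them in 18.1%. These percentages are the background against which the counts of each gene group are read. That reading is a description, because the lists were chosen with earlier results of these data known. Genes named as the largest rises or falls were required to have groups apart, so their lack of overlap is no separate result. Scaling to ribosomal protein genes in place of TMM added a median of 0.21 on the log2 scale to every gene and turned the split into 3908 higher and 409 lower, and changes below are relative to the TMM scale. Without replicate 1 of KO and replicate 3 of WT together, 1484 genes were called, 807 higher and 677 lower.

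**Figure D2:**
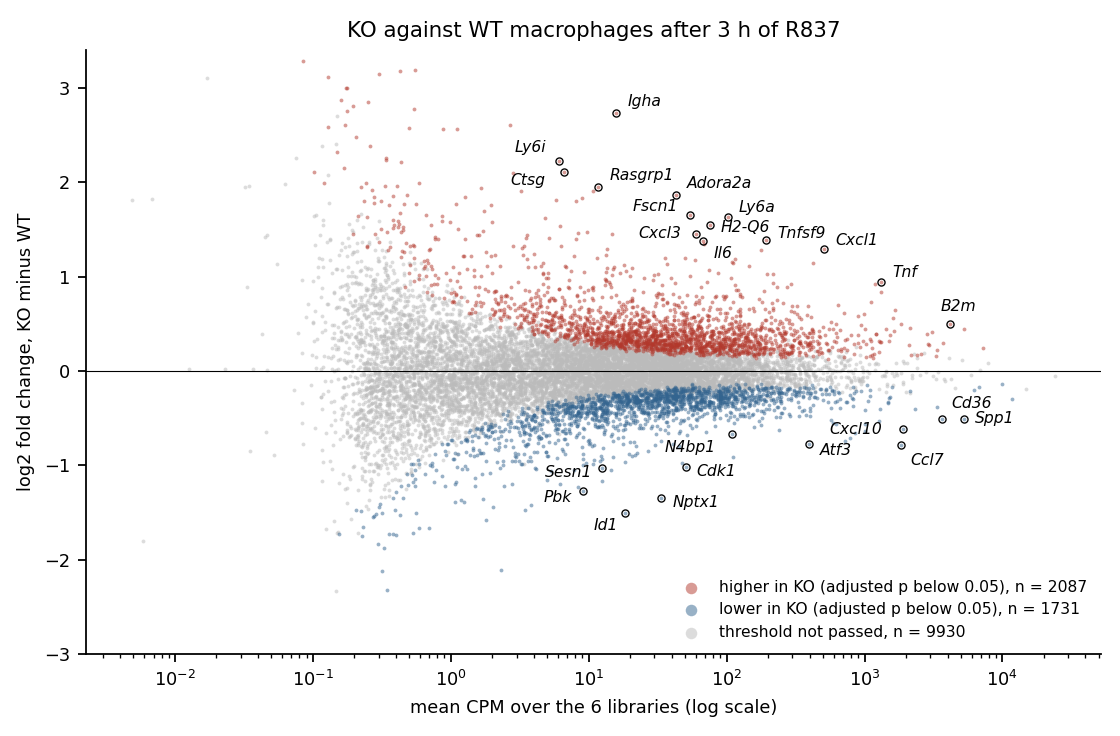
Log2 fold change of KO over WT at 3 h of R837 (vertical axis) against mean CPM over the 6 libraries (horizontal log axis) for each gene tested. Red and blue points are genes higher (2087) and lower (1731) in KO at an adjusted p below 0.05, grey points did not pass, and 5 genes lie outside the vertical range. Some named genes are circled, of which Igha is the highest and Id1 the lowest. On the ribosomal scale 3908 genes were higher and 409 lower.

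Ligands of the TNF superfamily were among the transcripts that differed most. Of 14 tested members, 7 were higher and 1 was lower in KO, against 15.2% higher and 12.6% lower over all genes tested. The median of the list was 0.67, against 0.01 over all genes, and 4 members were higher without replicate 2 of WT. With the compared libraries alone or with a stricter filter on low counts the median was 0.40, and with no filter it was 0.33. Tnfsf9, encoding the T-cell costimulator 4-1BBL, had 277, 273 and 287 CPM in KO libraries, against 107, 108 and 104 CPM in WT libraries (log2 1.39 ± 0.07, edgeR adjusted p = 1.23e-18). Its 3 KO libraries spanned a narrow range well above the WT libraries, as did those of Tnf, encoding the founding cytokine of the family, with 1746, 1699.5 and 1739.9 CPM in KO libraries, against 894, 907 and 886 CPM in WT libraries (log2 0.95 ± 0.06). Tnfsf15, encoding the death-receptor ligand TL1A, had 10.7, 11.3 and 13.1 CPM in KO libraries, against 4.28, 4.10 and 4.82 CPM in WT libraries (log2 1.40 ± 0.14). Tnfsf4, encoding OX40L, another costimulator of T cells, was also higher (log2 1.02 ± 0.13). The lower member was Tnfsf10, encoding the apoptosis-inducing ligand TRAIL. Tnfsf10 had 29.5, 31.4 and 35.4 CPM in KO libraries, against 58.5, 63.3 and 67.2 CPM in WT libraries (log2 -0.98 ± 0.14, edgeR adjusted p = 1.02e-06). Every KO library lay well under every WT library. Tnfsf9, Tnf, Tnfsf15 and Tnfsf10 were among the largest changes, chosen with groups apart, so their lack of overlap is no separate result. Lta, Tnfsf11 and Cd70 passed the test at levels under 2 CPM in every library, and each lost its call when at least 1 library was left out.

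Interleukins and growth factors were higher in 11 of 22 tested members and lower in 2, with a median of 0.48. Il1a, encoding the alarmin interleukin 1 alpha, had 156, 158 and 163 CPM in KO libraries, against 73.0, 69.6 and 67.1 CPM in WT libraries (log2 1.19 ± 0.12, edgeR adjusted p = 7.29e-10), with the groups fully apart. Il1b, encoding its relative interleukin 1 beta, differed less: 1301, 1484 and 1596 CPM in KO libraries, against 1057, 1158 and 1329 CPM in WT libraries (log2 0.31 ± 0.08), and the lowest KO library lay under the highest WT library. Its call ended without replicate 1 of WT. Il1rn, encoding the antagonist of the receptor both ligands bind, was higher too, with 1901, 1916 and 1941 CPM in KO libraries, against 1228, 1371 and 1302 CPM in WT libraries (log2 0.56 ± 0.07). Agonist and antagonist transcripts of this family were thus both higher in KO.

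Il23a, encoding the p19 subunit of interleukin 23, had 8.73, 8.57 and 10.1 CPM in KO libraries, against 3.50, 3.04 and 2.92 CPM in WT libraries (log2 1.54 ± 0.21, edgeR adjusted p = 8.19e-07). The KO mean was 2.90 times the WT mean, at a low level. Il12b, encoding the p40 subunit that interleukins 12 and 23 share, had 266, 323 and 337 CPM in KO libraries, against 182, 239 and 313 CPM in WT libraries (log2 0.33 ± 0.14, edgeR adjusted p = 0.0662), and its groups overlapped. Both chains of interleukin 27 were higher, Il27 by 0.55 ± 0.08 and Ebi3 by 0.45 ± 0.07 on the log2 scale. Inhba, encoding the activin A subunit, had 8.82, 7.22 and 6.30 CPM in KO libraries, against 2.62, 2.93 and 2.88 CPM in WT libraries (log2 1.41 ± 0.15), and Clcf1, encoding a cytokine of the interleukin 6 family, had 11.9, 13.4 and 12.3 CPM in KO libraries, against 3.36, 3.35 and 4.06 CPM in WT libraries (log2 1.80 ± 0.18). Both were low transcripts named among the largest rises, under a rule that required groups apart. Il6 differed by 1.38 ± 0.11, and the colony-stimulating factor genes Csf1 and Csf3 by 0.50 ± 0.10 and 0.56 ± 0.16. The call of Csf3 ended without replicate 1 of KO or replicate 2 of WT. The 2 lower members were Il15, which supports natural killer cells (-0.27 ± 0.10), and Il10, which restrains macrophages (-0.25 ± 0.09). Both lay near the threshold and lost their calls on the ribosomal scale, under RLE size factors, with the width trend removed and in DESeq2.

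Chemokines were called on both sides. Of 24 tested members, 8 were higher and 5 were lower, with a median of 0.18, and without replicate 3 of KO or replicate 1 of WT 5 were higher. The median was 0.05 with the compared libraries alone, 0.04 with a stricter filter and 0.11 without replicate 1 of WT. Of the neutrophil attractants, Cxcl1, Cxcl2 and Cxcl3 were higher, and Cxcl5 and Ppbp did not pass, at 1.09 ± 0.56 and -0.02 ± 0.15. Cxcl3 had 90.4, 78.7 and 93.5 CPM in KO libraries, against 29.2, 30.1 and 36.4 CPM in WT libraries (log2 1.46 ± 0.09, edgeR adjusted p = 3.65e-15). Cxcl1 had 687, 653 and 827 CPM in KO libraries, against 285, 269 and 332 CPM in WT libraries (log2 1.29 ± 0.10) and Cxcl2 had 754, 747 and 892 CPM in KO libraries, against 456, 459.6 and 554 CPM in WT libraries (log2 0.70 ± 0.09). In each of the 3 genes the lowest KO library lay well above the highest WT library, and replicate 3 was the highest of its genotype in KO and in WT. Cxcl1 and Cxcl3 were among the largest rises, chosen with groups apart. Ccl22, which attracts CCR4-bearing T cells, was also higher (0.81 ± 0.10). Ccl5 was called higher too, and its call ended without replicate 2 of KO, replicate 3 of KO or replicate 1 of WT.

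Ccl2, Ccl7 and Ccl12, which attract monocytes through CCR2, were lower. Ccl7 had 1183, 1285 and 1595 CPM in KO libraries, against 2149, 2219.9 and 2641 CPM in WT libraries (log2 -0.79 ± 0.10, edgeR adjusted p = 2.92e-07), and Ccl12 had 154, 182 and 227 CPM in KO libraries, against 241, 271 and 354 CPM in WT libraries (log2 -0.62 ± 0.12). For Ccl12 the gap between the groups was narrow, and without replicate 1 of KO and replicate 3 of WT together its call ended. Ccl2 was lower by a similar amount (-0.53 ± 0.09). Cxcl10, an interferon-induced attractant of T cells, had 1463, 1531 and 1502 CPM in KO libraries, against 2246, 2370.4 and 2281 CPM in WT libraries (log2 -0.62 ± 0.07, edgeR adjusted p = 3.33e-08), with no overlap. Ccl7 and Cxcl10 were among the largest falls in CPM per kb of gene width, chosen with groups apart. The abundant attractants Ccl3 and Ccl4, which draw monocytes and T cells, did not pass, at 0.19 ± 0.09 and -0.08 ± 0.06. Ccr2, encoding the receptor of Ccl2, Ccl7 and Ccl12, was higher in KO, with 188, 182 and 198 CPM in KO libraries, against 125, 113 and 119 CPM in WT libraries (log2 0.67 ± 0.08). The transcripts of these ligands and of their receptor thus differed in opposite directions.

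**Figure D3:**
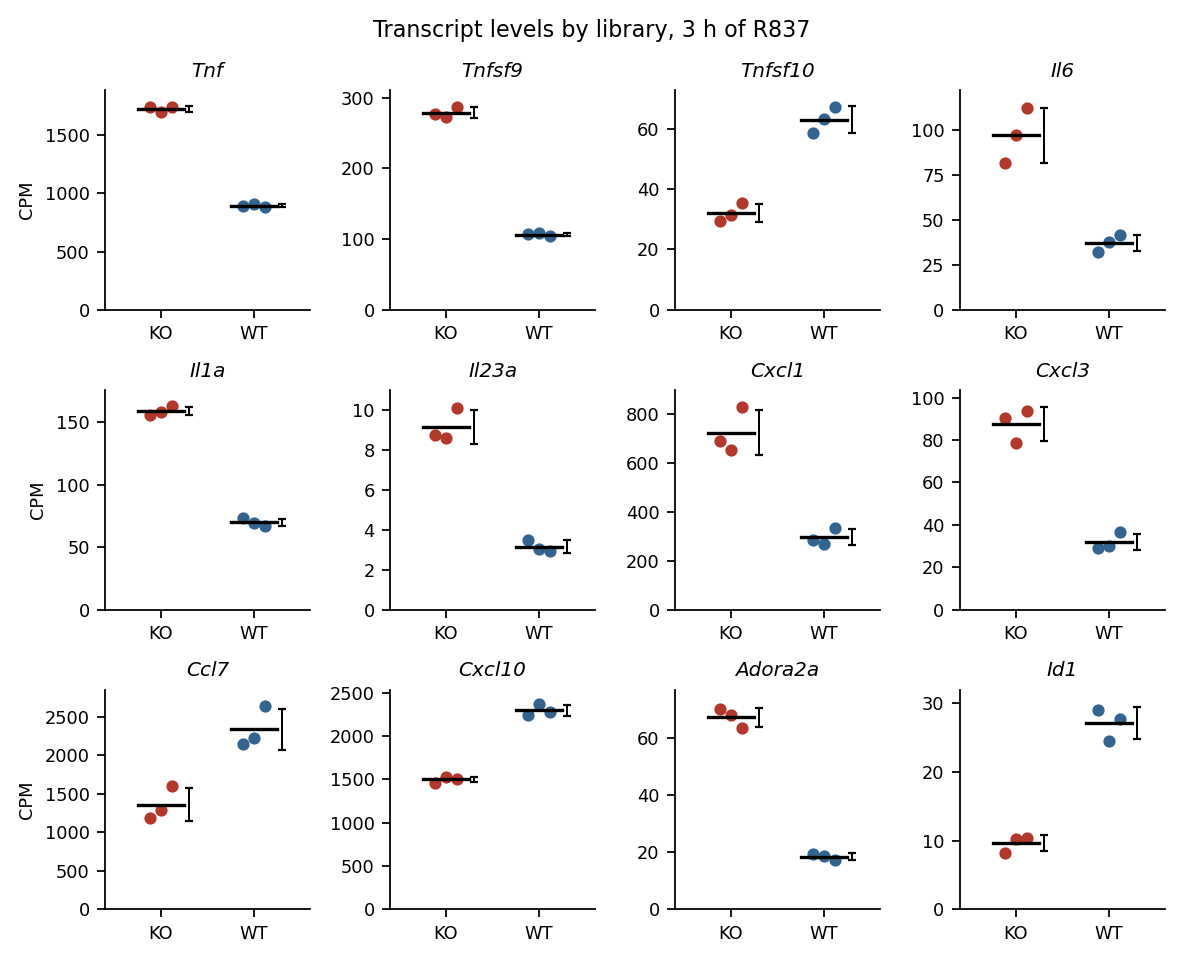
Level in CPM (vertical axes, from 0) of 12 transcripts in each KO (left, red) and WT (right, blue) library at 3 h of R837. Horizontal lines are means of 3 libraries and brackets are ± 1 SD. Tnf, Tnfsf9, Il6, Il1a, Il23a, Cxcl1, Cxcl3 and the adenosine receptor gene Adora2a are higher in KO, and Tnfsf10, Ccl7, Cxcl10 and Id1 are lower. The groups do not overlap in any panel. All genes but Il6 and Il1a are among the largest rises or falls, which were chosen with groups apart, so for them this is no separate result.

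The following 3′ UTR sites are shown because several of the cytokine mRNAs that differed carry the AU-rich nonamer TTATTTATT, the letters read by AU-binding decay proteins. Each line gives the first copy with its neighbouring bases, read 5′ to 3′ on the strand of the gene, with the nonamer in capitals (GRCm38 sequence, longest annotated 3′ UTR).
Tnf, chr17:35199691-35199715, minus strand: tgcacttaTTATTTATTatttattt
Cxcl1, chr5:90892617-90892641, plus strand: ttatgtatTTATTTATTccacaaag
Cxcl2, chr5:90905318-90905342, plus strand: gagttcacTTATTTATTtatctatg
Cxcl3, chr5:90787869-90787893, plus strand: atcagttgTTATTTATTgaaatggt
Il23a, chr10:128296186-128296210, minus strand: gatgatggTTATTTATTctatttat
The search used the transcript strand, and overlapping copies were counted: Tnf held 5 copies, Cxcl2 held 4, Cxcl1 held 2, and Cxcl3 and Il23a held 1 each. These 5 were picked from transcripts higher in KO, so their shared direction follows from the choice. Among 11618 tested genes with an annotated 3′ UTR, 8.0% held the nonamer. The share was 11.3% among genes higher in KO (226 of 1999), 5.17% among genes lower in KO (83 of 1605) and 7.75% among genes that did not pass. Genes higher in KO also had longer 3′ UTRs, with a median of 1451 bases against 819 in lower genes. Within 3 classes of equal size by 3′ UTR length the shares were closer. In the longest class they were 18.1% for higher and 12.4% for lower genes, in the middle class 8.95% and 5.1%, and in the shortest class 3.13% and 1.66%. Of the 24 chemokine genes 4 held the nonamer, and 4 of these were called higher. Of the 22 interleukin and growth factor genes 7 held it, and 3 of these were higher and none lower. Of the 26 early response genes 3 held it, and 2 of these were higher and 1, Fos, was lower. Of the 38 mitosis genes 3 held it, and 2 of these were lower and none higher. A match of letters is a description and not a binding site.

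Upstream of these ligands, transcripts of the TLR pathway were higher in 12 of 25 tested members and lower in none, with a median of 0.23. The differences were small, and the median was 0.15 with the width trend removed. Tlr7, encoding the receptor of R837, had 226, 205 and 209 CPM in KO libraries, against 179.7, 182 and 158 CPM in WT libraries (log2 0.30 ± 0.10, edgeR adjusted p = 0.0156). The KO libraries lay above the WT libraries, and the call ended without replicate 1 of KO or replicate 3 of WT. Unc93b1, encoding the chaperone that carries TLR7 to endosomes, had 544, 559 and 499.6 CPM in KO libraries, against 446, 428 and 376 CPM in WT libraries (log2 0.36 ± 0.08), a call that ended without both of these libraries. Tlr1, encoding a partner of TLR2 in sensing lipopeptides, had 224, 241 and 229 CPM in KO libraries, against 182, 191 and 186 CPM in WT libraries (log2 0.31 ± 0.06), and Cd14, encoding a co-receptor, was at 0.28 ± 0.05. Irak3, encoding an inhibitory IRAK, was higher as well (0.32 ± 0.07). Myd88 itself did not pass (0.07 ± 0.06). With the width trend removed 11 members were higher and 2 lower, and without replicate 1 of KO and replicate 3 of WT together 6 were higher and none lower.

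In the list of the IKK, LUBAC and TBK1 complexes, 12 of 25 tested members were higher and 1 was lower, with a median of 0.19. Without replicate 1 of KO 6 were higher, and without replicate 3 of WT 7. The largest differences were in genes of feedback and adaptor proteins. Traf1, encoding an adaptor of TNF receptors, had 349, 366 and 355 CPM in KO libraries, against 195, 197 and 186 CPM in WT libraries (log2 0.89 ± 0.05, edgeR adjusted p = 2.39e-16). Tnfaip3, encoding the ubiquitin editor A20, had 1227, 1235 and 1148 CPM in KO libraries, against 778, 824 and 768 CPM in WT libraries (log2 0.61 ± 0.05). Both stood fully apart, as did Traf3, encoding an adaptor that restrains the alternative NF-kB pathway (0.54 ± 0.09), and the ubiquitin ligase genes Birc2 (0.47 ± 0.08) and Birc3 (0.44 ± 0.06). Among the kinases, Ikbkb and Ikbke, encoding IKK beta and IKK epsilon, passed at 0.17 ± 0.06 and 0.21 ± 0.07, and both calls ended with the width trend removed. Chuk, encoding IKK alpha, Tbk1, and Ikbkg, encoding the scaffold NEMO, did not pass, at 0.14 ± 0.07, -0.08 ± 0.07 and -0.07 ± 0.06. Traf5, encoding another TRAF adaptor, was the lower member, with 8.50, 9.34 and 10.2 CPM in KO libraries, against 12.4, 13.5 and 13.8 CPM in WT libraries (log2 -0.51 ± 0.12), and this call ended on the ribosomal scale and without replicate 1 of KO and replicate 3 of WT together.

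Every tested gene of the NF-kB subunit and IkB family list was higher in KO, 11 of 11, with a median of 0.43 and a range of 0.21 to 0.62. Among the subunits, Nfkb2, encoding p100, had 377, 397 and 337 CPM in KO libraries, against 237, 262 and 223 CPM in WT libraries (log2 0.62 ± 0.09, edgeR adjusted p = 3.62e-06). Rela, encoding p65, had 168, 149.6 and 131 CPM in KO libraries, against 99.2, 111 and 87.5 CPM in WT libraries (log2 0.60 ± 0.10), and Relb, Rel and Nfkb1 were at 0.42 ± 0.08, 0.38 ± 0.08 and 0.32 ± 0.07. Among the inhibitors, Nfkbie, encoding IkB epsilon, had 389, 405 and 379.8 CPM in KO libraries, against 277, 257 and 240.2 CPM in WT libraries (log2 0.60 ± 0.06), and in it as in the subunits no KO library reached down to a WT library. Nfkbib, Nfkbiz, Bcl3 and Nfkbid, encoding further IkB proteins, were at 0.43 ± 0.07, 0.39 ± 0.07, 0.50 ± 0.10 and 0.51 ± 0.11. Nfkbia, encoding IkB alpha, the classical inhibitor, differed least, with 1308, 1402 and 1376 CPM in KO libraries, against 1195, 1151 and 1196 CPM in WT libraries (log2 0.21 ± 0.06). All 11 calls held in each alternative setting, except that of Nfkbia without replicate 2 of KO.

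The next promoters are shown because genes of this list and of the chemokine list hold the same letters. Each holds the kappaB letters, GGG, any 2 bases and then TTTCC, searched on both strands. They run from 250 bases before to 50 after the RefSeq start site (GRCm38.p6), 5′ to 3′ on the strand of the gene, with matches in capitals.
Nfkbia, chr12:55492598-55492897, minus strand: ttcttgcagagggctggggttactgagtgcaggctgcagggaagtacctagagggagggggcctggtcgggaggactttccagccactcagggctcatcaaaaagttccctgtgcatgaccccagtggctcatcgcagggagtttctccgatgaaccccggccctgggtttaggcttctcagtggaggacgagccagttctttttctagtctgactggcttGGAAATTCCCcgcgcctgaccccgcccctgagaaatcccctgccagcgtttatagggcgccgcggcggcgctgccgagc
Cxcl1, chr5:90890995-90891294, plus strand: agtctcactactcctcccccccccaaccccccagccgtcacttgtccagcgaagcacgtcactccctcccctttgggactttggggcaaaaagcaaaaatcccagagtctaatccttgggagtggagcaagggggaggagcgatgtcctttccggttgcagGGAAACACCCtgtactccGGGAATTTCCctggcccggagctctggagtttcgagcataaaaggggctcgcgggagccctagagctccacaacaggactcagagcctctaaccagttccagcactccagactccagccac
Cxcl3, chr5:90785851-90786150, plus strand: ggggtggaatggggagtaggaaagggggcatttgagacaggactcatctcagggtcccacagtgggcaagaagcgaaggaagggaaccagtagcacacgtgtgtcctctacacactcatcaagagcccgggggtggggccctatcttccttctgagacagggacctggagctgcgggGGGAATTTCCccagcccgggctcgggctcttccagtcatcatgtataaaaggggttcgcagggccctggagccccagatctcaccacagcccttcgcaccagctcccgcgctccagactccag
The letters occurred in 1.63% of 32851 RefSeq promoters, and in 2.1% of the 9639 promoters of tested genes. They occurred in 2.93% of promoters of genes higher in KO, in 1.86% of genes lower in KO and in 1.94% of genes that did not pass. By list they were in 3 of 8 NF-kB family promoters matched, 4 of 16 chemokine promoters and 5 of 23 promoters of the IKK list. In Nfkbia the match begins 29 bases before the start site and is on the other strand, and in Cxcl3 the match begins 73 bases before the start site. Of the chemokine promoters with a match, Cxcl1, Cxcl2 and Cxcl3 were higher in KO, and Ccl9 did not pass (0.01 ± 0.10).

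The caspase-8 and necroptosis list was mixed, with 4 of 15 tested members higher and 2 lower and a median of 0.07. Tnfrsf1b, encoding TNF receptor 2, had 2263, 2233 and 2007 CPM in KO libraries, against 1502, 1653 and 1434 CPM in WT libraries (log2 0.50 ± 0.09, edgeR adjusted p = 4.68e-05), with no overlap. Cflar, encoding the caspase-8 regulator FLIP, had 483, 445 and 439.8 CPM in KO libraries, against 334, 365 and 337 CPM in WT libraries (log2 0.40 ± 0.08). Casp8, encoding the protease that cleaves N4BP1, was slightly lower, with 82.2, 89.3 and 90.0 CPM in KO libraries, against 94.8, 103 and 109.8 CPM in WT libraries (log2 -0.23 ± 0.07, edgeR adjusted p = 0.0106). The Casp8 groups were narrowly apart. Its call ended on the ribosomal scale and without replicate 1 of KO or replicate 3 of WT. Ripk3, encoding a kinase of necroptosis, was higher (0.34 ± 0.10), a call that ended without replicate 3 of WT, while Ripk1 did not pass (0.07 ± 0.06). Without replicate 3 of WT none of the list was lower.

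Genes for ribonucleases and AU-rich decay factors were higher in 8 of 17 tested members and lower in 3, N4bp1 among the lower. Zc3h12a, encoding Regnase-1, had 198, 199.8 and 180.1 CPM in KO libraries, against 157, 170.5 and 149 CPM in WT libraries (log2 0.28 ± 0.08), and its paralog Zc3h12c was at 0.27 ± 0.08. Zc3h12d, encoding Regnase-4, went the other way, with 31.9, 33.6 and 29.8 CPM in KO libraries, against 41.4, 46.7 and 40.5 CPM in WT libraries (log2 -0.43 ± 0.07, edgeR adjusted p = 1.60e-05). The groups of all 3 paralogs were apart. The call of Zc3h12d ended on the ribosomal scale, and that of Zc3h12a without replicate 3 of WT. Zfp36, encoding tristetraprolin, which binds AU-rich elements, had 1243, 1203 and 1059 CPM in KO libraries, against 846, 921 and 798 CPM in WT libraries (log2 0.45 ± 0.09). Khsrp and Hnrnpd, encoding other AU-binding proteins, were at 0.53 ± 0.10 and 0.49 ± 0.09. With the width trend removed 5 members were higher, without replicate 3 of WT 4 were, and the calls of Zc3h12c and of Rc3h1, encoding the decay factor roquin 1, ended.

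**Figure D4:**
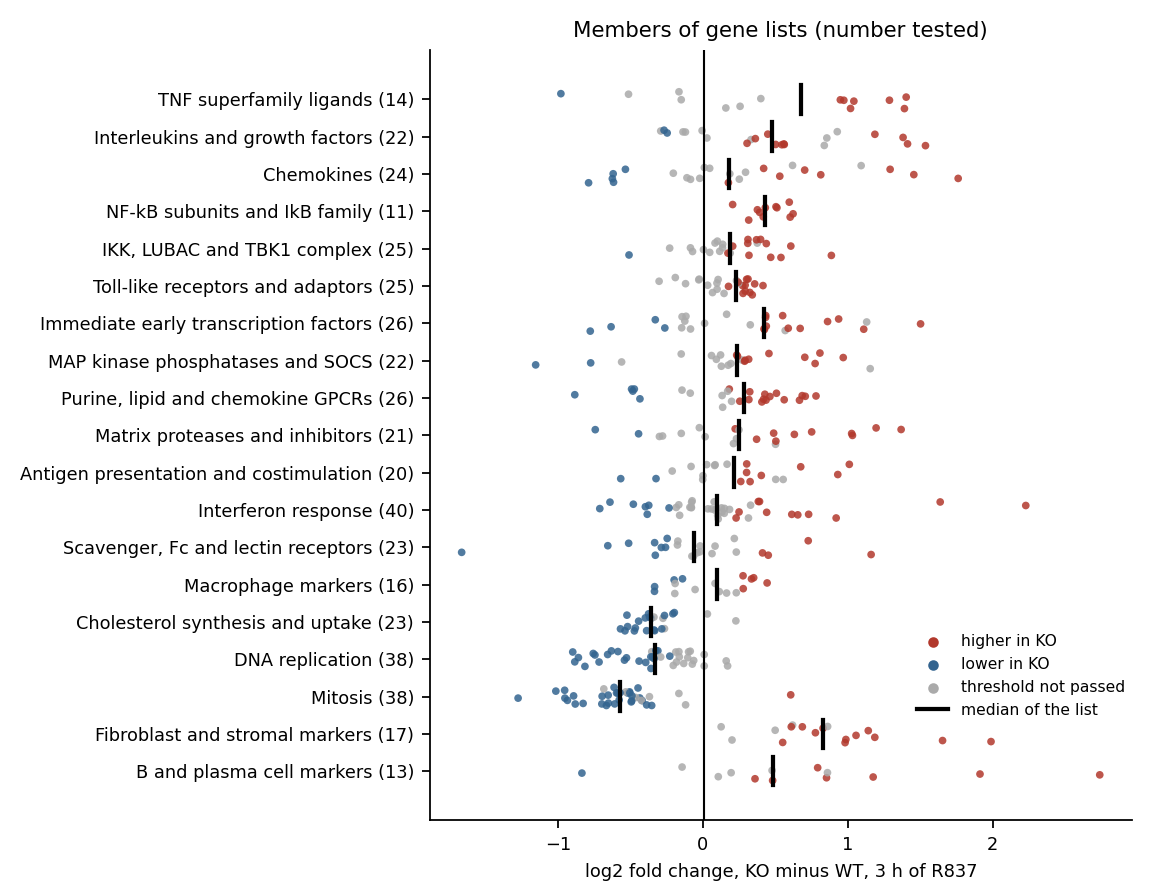
Log2 fold change of KO over WT at 3 h of R837 (horizontal axis) for each tested member of 19 gene lists, with the number tested in parentheses. Red and blue points are members higher and lower in KO at an adjusted p below 0.05, grey points did not pass, and black bars are list medians. The NF-kB list has all 11 points right of 0, and the mitosis list has 30 of 38 called lower. The median of the scavenger list (-0.06) turned positive on the ribosomal scale.

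Early response transcription factors were higher in 12 of 26 tested members and lower in 4, with a median of 0.42. The AP-1 family divided within itself. Junb had 689, 813 and 794 CPM in KO libraries, against 634, 522 and 544 CPM in WT libraries (log2 0.43 ± 0.09), whereas Jun had 35.0, 36.7 and 36.3 CPM in KO libraries, against 53.4, 59.8 and 54.1 CPM in WT libraries (log2 -0.63 ± 0.08, edgeR adjusted p = 2.77e-07). Fos was lower as well (-0.33 ± 0.09), a call that ended on the ribosomal scale. Atf3, encoding a stress-induced repressor of inflammatory genes, had 272, 303 and 300.0 CPM in KO libraries, against 457, 504 and 537 CPM in WT libraries (log2 -0.78 ± 0.07), and its KO libraries all lay far below its WT libraries. Maff, encoding a small Maf protein, had 52.9, 55.3 and 57.4 CPM in KO libraries, against 30.2, 27.7 and 28.6 CPM in WT libraries (log2 0.94 ± 0.07). The early response genes Ier3 and Ier5 were at 0.67 ± 0.07 and 0.86 ± 0.07. Gfi1, which encodes a zinc-finger repressor of the blood lineages, was among the largest rises, with 15.0, 15.3 and 11.6 CPM in KO libraries, against 4.06, 4.41 and 3.36 CPM in WT libraries (log2 1.83 ± 0.16, edgeR adjusted p = 3.27e-11).

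Id1, encoding an inhibitor of basic helix-loop-helix factors, was the largest fall among genes with a mean of at least 5 CPM, with 8.27, 10.2 and 10.4 CPM in KO libraries, against 29.1, 24.6 and 27.7 CPM in WT libraries (log2 -1.50 ± 0.11). Its paralogs Id2 and Id3 did not pass, at 0.08 ± 0.07 and -0.03 ± 0.08. Smad1, encoding a mediator of BMP signals that drive Id1, was lower too, with 6.24, 5.61 and 6.26 CPM in KO libraries, against 8.89, 7.34 and 8.24 CPM in WT libraries (log2 -0.43 ± 0.11), and this call ended on the ribosomal scale. The list of BMP, TGF-beta and ID genes was mixed. Of 19 tested members 4 were higher, Smad5 among them, and 2 lower (Id1 and Smad1), with a median of 0.14. With the width trend removed 1 was higher and 3 lower.

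Inhibitors of kinase and cytokine signals were higher in 10 of 22 tested members and lower in 2. Among the phosphatases of MAP kinases, Dusp5 had 19.02, 19.02 and 15.3 CPM in KO libraries, against 9.96, 8.97 and 8.40 CPM in WT libraries (log2 0.97 ± 0.12) and Dusp4 had 22.6, 18.3 and 19.8 CPM in KO libraries, against 12.03, 11.1 and 11.5 CPM in WT libraries (log2 0.81 ± 0.10). Dusp6, encoding a phosphatase specific for ERK, went the other way, with 4.02, 2.75 and 2.35 CPM in KO libraries, against 7.12, 6.50 and 7.01 CPM in WT libraries (log2 -1.15 ± 0.16, edgeR adjusted p = 5.80e-07). All 3 phosphatase genes had groups that did not overlap. Cish and Socs3, encoding suppressors of cytokine receptor signals, were at 0.70 ± 0.14 and 0.32 ± 0.09, the call of Socs3 ending without replicate 3 of WT, and the abundant Dusp1 did not pass (0.13 ± 0.08).

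Receptors of the cell surface differed in both directions. Adora2a, encoding an adenosine receptor that raises cyclic AMP, had 70.0, 68.0 and 63.6 CPM in KO libraries, against 19.4, 18.6 and 17.2 CPM in WT libraries (log2 1.87 ± 0.10, edgeR adjusted p = 4.05e-17). Adora3, encoding another adenosine receptor, had 7.77, 8.57 and 6.87 CPM in KO libraries, against 12.4, 14.2 and 13.6 CPM in WT libraries (log2 -0.79 ± 0.09), and Adora2b was at 0.26 ± 0.08. The 3 adenosine receptor genes measured thus differed by different amounts and not all in 1 direction. Of the cyclic AMP list as a whole, 4 of 20 tested members were higher and 2 lower, and without replicate 1 of KO or replicate 3 of WT 2 were higher. Gpr132, encoding a receptor for lipids and lactate, had 104, 99.8 and 92.7 CPM in KO libraries, against 44.0, 38.3 and 34.5 CPM in WT libraries (log2 1.35 ± 0.10). Rgs1 and Rgs16, encoding proteins that shorten G-protein signals, were at 1.14 ± 0.11 and 1.12 ± 0.10, and Gna15, encoding a G-protein subunit of blood cells, had 7.06, 9.45 and 6.46 CPM in KO libraries, against 16.9, 17.5 and 17.1 CPM in WT libraries (log2 -1.16 ± 0.12). Across the purine, lipid and chemokine receptors 15 of 26 tested members were higher and 5 lower, with a median of 0.29, and without replicate 3 of WT 9 were higher. Ptafr, encoding the receptor of platelet-activating factor, was at 0.69 ± 0.07, and Hcar2, encoding the niacin receptor, was at -0.48 ± 0.09. The calls of Hcar2 and Adora2b ended without replicate 1 of KO and replicate 3 of WT together.

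Of the Ras and G-protein regulators, 10 of 21 tested members were higher and 3 lower. Rasgrp1, encoding an exchange factor that loads Ras with GTP, had 19.6, 18.8 and 17.3 CPM in KO libraries, against 4.87, 4.80 and 4.75 CPM in WT libraries (log2 1.95 ± 0.13), and Rhob, encoding a small GTPase of endosomes, had 251, 238 and 265 CPM in KO libraries, against 121, 96.9 and 91.0 CPM in WT libraries (log2 1.29 ± 0.09). Rhoh, encoding a small GTPase of blood cells without GTP-hydrolysing activity, was lower, with 13.6, 18.1 and 16.9 CPM in KO libraries, against 27.7, 28.3 and 27.7 CPM in WT libraries (log2 -0.79 ± 0.11, edgeR adjusted p = 1.34e-06). Fscn1, encoding the actin bundler fascin, which forms cell protrusions, had 82.5, 86.9 and 78.8 CPM in KO libraries, against 26.6, 27.4 and 25.1 CPM in WT libraries (log2 1.65 ± 0.09).

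Enzymes of lipid mediators fell on both sides. Ptgs2, encoding the inducible cyclooxygenase, had 1505, 1346 and 1353 CPM in KO libraries, against 812, 872 and 849 CPM in WT libraries (log2 0.73 ± 0.09), and Ptges, encoding prostaglandin E synthase, had 241, 245 and 238 CPM in KO libraries, against 129, 136 and 137 CPM in WT libraries (log2 0.85 ± 0.06, edgeR adjusted p = 6.10e-15). Pla2g7, encoding an enzyme that inactivates platelet-activating factor, had 189, 199.97 and 212 CPM in KO libraries, against 95.1, 92.1 and 90.1 CPM in WT libraries (log2 1.12 ± 0.06). All 3 were clearly apart between genotypes. Pla2g4a, encoding the cytosolic phospholipase A2 that frees arachidonic acid, was lower (-0.32 ± 0.09), as were Hpgds (-0.28 ± 0.08) and Alox5ap (-0.23 ± 0.06), which act in prostaglandin D and leukotriene synthesis. In the list 4 of 13 tested members were higher and 5 lower, and the median (-0.05) turned positive on the ribosomal scale, where none was lower. Without replicate 1 of KO 2 were lower, the call of Alox5ap ending, and without replicate 3 of WT 1 was, those of Pla2g4a and Hpgds ending.

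Some MHC class I genes, which are in none of the lists and were named for the size of their rise, were higher. B2m, encoding the shared light chain, had 4976, 4701 and 4895 CPM in KO libraries, against 3389, 3505 and 3418 CPM in WT libraries (log2 0.50 ± 0.05, edgeR adjusted p = 4.08e-09). H2-K1 and H2-D1, encoding classical heavy chains, were at 0.65 ± 0.06 and 0.42 ± 0.05, and H2-Q6, H2-Q7 and H2-M2, encoding non-classical ones, at 1.55 ± 0.07, 1.20 ± 0.08 and 1.46 ± 0.13. H2-Q6 and H2-Q7 are near-identical genes, and the split of reads between them is uncertain. Of the antigen presentation and costimulation list, which holds class II genes, 8 of 20 tested members were higher and 2 lower, with a median of 0.21. Cd74, encoding the invariant chain that guides class II, was at 0.93 ± 0.09, more than the class II chains H2-Aa (0.30 ± 0.06) and H2-Eb1 (0.33 ± 0.06). Cd83, encoding a marker of activated antigen-presenting cells, was lower, with 748, 799.8 and 906 CPM in KO libraries, against 1197, 1189.7 and 1243 CPM in WT libraries (log2 -0.57 ± 0.08), while the costimulator Cd40 did not pass (0.09 ± 0.10).

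Scavenger, Fc and lectin receptors were higher in 4 of 23 tested members and lower in 8, with a median (-0.06) that turned positive on the ribosomal scale, where 7 were higher and 4 lower. Axl, encoding a receptor for apoptotic cells, had 162, 155 and 137 CPM in KO libraries, against 68.6, 73.5 and 61.7 CPM in WT libraries (log2 1.16 ± 0.10, edgeR adjusted p = 4.10e-12). Cd36, encoding a receptor of oxidised lipoproteins and one of the most abundant transcripts, had 2949, 2828 and 3303 CPM in KO libraries, against 4400.3, 4054 and 4484 CPM in WT libraries (log2 -0.51 ± 0.09). Low-affinity Fc receptor genes lay on opposite sides. Fcgr2b, the inhibitory receptor of immunoglobulin G, had 296, 323 and 311 CPM in KO libraries, against 198, 245 and 256 CPM in WT libraries (log2 0.41 ± 0.07), and Fcgr3, an activating one, had 600.4, 693 and 707 CPM in KO libraries, against 925, 1040.5 and 1184 CPM in WT libraries (log2 -0.65 ± 0.10). The high-affinity activating receptor gene Fcgr1 was lower as well (-0.33 ± 0.07), a call that ended on the ribosomal scale. Trem2, encoding a lipid sensor of tissue macrophages, was at -0.33 ± 0.07. Cd163, encoding the scavenger receptor of haemoglobin, had 0.234, 0.366 and 0.247 CPM in KO libraries, against 0.959, 0.918 and 0.824 CPM in WT libraries (log2 -1.66 ± 0.42). Among transcripts outside the lists, Spp1, encoding the secreted protein osteopontin, had 4239.9, 4289 and 4487 CPM in KO libraries, against 5709.9, 6017 and 6713 CPM in WT libraries (log2 -0.50 ± 0.07).

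Of the interferon response list, 11 of 40 tested members were higher and 7 lower, with a median of 0.10. On the ribosomal scale 19 were higher and 3 lower, and without replicate 1 of KO or replicate 3 of WT 4 were lower. The genes that differed did not move as a block. Ly6a, encoding the surface protein Sca-1, had 155, 151 and 158 CPM in KO libraries, against 47.7, 51.0 and 50.7 CPM in WT libraries (log2 1.64 ± 0.09, edgeR adjusted p = 4.81e-17), and its relatives Ly6e and Ly6i were at 0.92 ± 0.09 and 2.23 ± 0.14. Genes of the Ly6 family are close copies, and the split of reads among them is uncertain. Oas3, encoding a sensor of double-stranded RNA, had 201, 177 and 158 CPM in KO libraries, against 116, 123.04 and 102 CPM in WT libraries (log2 0.66 ± 0.10). Rsad2, encoding the antiviral enzyme viperin, had 783, 771 and 826 CPM in KO libraries, against 1224, 1272 and 1211 CPM in WT libraries (log2 -0.64 ± 0.12), and Cmpk2, its neighbour in the genome, had 548, 607 and 635 CPM in KO libraries, against 957, 1001 and 969 CPM in WT libraries (log2 -0.71 ± 0.11). Irf7, encoding a factor that amplifies interferon production, was higher (0.61 ± 0.07) and Irf8, encoding a factor of the monocyte and dendritic lineages, was lower (-0.48 ± 0.06). Ifnb1, encoding interferon beta, was low and did not pass (0.32 ± 0.29), nor did Isg15 (-0.09 ± 0.13). Ifit2, encoding an RNA-binding antiviral protein, was lower (-0.40 ± 0.12), but its call ended on the ribosomal scale and without replicate 1 of KO or replicate 3 of WT.

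The promoters of 2 genes of this list that differed in opposite directions are shown. Both hold the letters of the interferon element, GAAA, any 2 bases and GAAA, on 1 of the 2 strands, in capitals (same build and window as above).
Oas3, chr5:120777610-120777909, minus strand: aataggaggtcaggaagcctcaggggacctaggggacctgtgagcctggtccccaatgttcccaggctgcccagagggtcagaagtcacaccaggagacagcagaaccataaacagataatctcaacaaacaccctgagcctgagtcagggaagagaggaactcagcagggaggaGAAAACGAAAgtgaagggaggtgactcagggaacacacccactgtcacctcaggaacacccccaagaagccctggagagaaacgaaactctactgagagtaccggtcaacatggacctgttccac
Rsad2, chr12:26456403-26456702, minus strand: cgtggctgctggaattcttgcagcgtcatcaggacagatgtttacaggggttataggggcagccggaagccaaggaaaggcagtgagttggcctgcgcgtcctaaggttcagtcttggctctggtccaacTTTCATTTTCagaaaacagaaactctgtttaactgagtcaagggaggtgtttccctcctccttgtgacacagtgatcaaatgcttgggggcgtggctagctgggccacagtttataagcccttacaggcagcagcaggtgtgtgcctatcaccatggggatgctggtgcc
Of the 30 interferon-list promoters matched, 15 (50.0%) held these letters on either strand, against 3.44% of all 32851 promoters and 4.11% of the promoters of tested genes. Among tested genes they were in 4.36% of promoters of genes higher in KO and in 4.8% of those lower in KO. The letters were thus present on both sides of the comparison.

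Proteases that remodel matrix were higher in 10 of 21 tested members and lower in 2, with a median of 0.25. Mmp9, encoding gelatinase B, had 50.9, 52.99 and 46.2 CPM in KO libraries, against 21.1, 22.2 and 22.2 CPM in WT libraries (log2 1.20 ± 0.09, edgeR adjusted p = 9.58e-14), and Mmp14, encoding a membrane-bound collagenase, had 273, 274 and 249 CPM in KO libraries, against 110.3, 146 and 133 CPM in WT libraries (log2 1.03 ± 0.08). Mmp12, encoding macrophage elastase, was lower, with 489, 513 and 609.7 CPM in KO libraries, against 891, 857 and 947 CPM in WT libraries (log2 -0.74 ± 0.09). All 3 had groups fully apart. In the plasminogen system, Plau, encoding the activator urokinase, was at -0.44 ± 0.08, whereas its receptor gene Plaur was at 0.50 ± 0.08, and the call of Plau ended on the ribosomal scale. Saa3 and C3, encoding an acute-phase protein and the central complement component, were higher, at 0.84 ± 0.18 and 1.14 ± 0.11. Ocstamp and Dcstamp, encoding proteins of cell fusion, were at 1.69 ± 0.27 and 0.92 ± 0.17, at levels under 7 CPM.

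Genes of cell division were lower in KO. Of 38 mitosis genes tested, 30 were lower and 1 was higher, with a median of -0.57, and of 38 DNA replication genes 21 were lower and none higher, with a median of -0.33. On the ribosomal scale 16 mitosis and 10 DNA replication genes were lower. Cdk1, encoding the kinase that drives entry into mitosis, had 31.5, 32.9 and 36.1 CPM in KO libraries, against 67.3, 68.5 and 66.8 CPM in WT libraries (log2 -1.01 ± 0.09, edgeR adjusted p = 4.03e-11). Prc1, encoding a bundler of spindle microtubules, had 8.50, 8.72 and 7.45 CPM in KO libraries, against 16.4, 16.9 and 14.6 CPM in WT libraries (log2 -0.95 ± 0.11), and Rrm2, encoding a subunit of ribonucleotide reductase, had 15.2, 14.1 and 14.1 CPM in KO libraries, against 29.1, 23.2 and 28.7 CPM in WT libraries (log2 -0.90 ± 0.09). In all 3 genes every KO library lay under every WT library. For Cdk1 and Prc1 this is no separate result, because they were among the largest falls, chosen with groups apart. Spc25 and Knstrn, encoding kinetochore and spindle proteins, were at -1.04 ± 0.11 and -1.05 ± 0.12, and Pcna, the sliding clamp of replication, at -0.54 ± 0.09. Cdkn1a, encoding the cell-cycle inhibitor p21, was higher (0.43 ± 0.09). The exception was Mki67, encoding the proliferation antigen Ki-67, with 34.2, 29.5 and 24.7 CPM in KO libraries, against 16.6, 21.8 and 19.9 CPM in WT libraries (log2 0.61 ± 0.14). Its call held with the width trend removed and ended without replicate 1 of KO and replicate 3 of WT together. In bulk samples fewer cells of a kind and less RNA per cell cannot be told apart, so these values do not say whether fewer KO cells were dividing.

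Promoters of 2 of these genes are shown because late cell-cycle genes share 2 elements, the CHR with the letters TTTGAA and the CCAAT box, both in capitals and searched on both strands (same build and window).
Cdk1, chr10:69352863-69353162, minus strand: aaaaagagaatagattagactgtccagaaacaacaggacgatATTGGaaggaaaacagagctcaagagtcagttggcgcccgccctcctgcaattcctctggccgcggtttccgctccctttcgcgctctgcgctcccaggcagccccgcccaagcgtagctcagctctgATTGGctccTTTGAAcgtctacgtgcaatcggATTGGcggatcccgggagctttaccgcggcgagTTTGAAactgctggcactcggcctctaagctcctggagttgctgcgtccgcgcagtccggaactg
Prc1, chr7:80294201-80294500, plus strand: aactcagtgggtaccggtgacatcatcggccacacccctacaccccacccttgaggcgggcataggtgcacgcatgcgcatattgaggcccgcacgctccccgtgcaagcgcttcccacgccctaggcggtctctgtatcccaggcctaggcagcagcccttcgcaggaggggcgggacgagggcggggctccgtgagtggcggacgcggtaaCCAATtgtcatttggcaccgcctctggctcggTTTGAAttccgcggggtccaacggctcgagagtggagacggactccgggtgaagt
TTTGAA was in 21 of 30 mitosis-list promoters matched (70.0%), in 5 of 31 DNA replication promoters and in 17.9% of all promoters. CCAAT was in 24 of the 30 mitosis promoters (80.0%), against 37.4% of all promoters and 42.9% of those of tested genes. Among tested genes TTTGAA was in 12.7% of promoters of genes higher in KO and 16.1% of those of genes lower in KO. In the Prc1 promoter shown, the CCAAT match begins 37 bases before the start site and the TTTGAA match 5 bases before it. RefSeq gives Prc1 another start site, and the same matches begin 62 and 30 bases before that one.

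Cholesterol synthesis genes were lower in 18 of 23 tested members and higher in none, with a median of -0.35, and 5 were lower on the ribosomal scale. Cyp51 and Msmo1, encoding enzymes that remove methyl groups from sterol intermediates, had 89.8, 99.1 and 96.4 CPM in KO libraries, against 129.6, 132 and 133 CPM in WT libraries (log2 -0.47 ± 0.06, edgeR adjusted p = 1.76e-07) and 130.0, 134 and 162 CPM in KO libraries, against 211, 206 and 214 CPM in WT libraries (log2 -0.57 ± 0.08). No KO library reached the WT range in either gene. Sqle, encoding squalene epoxidase, and Hmgcs1, encoding HMG-CoA synthase, were at -0.44 ± 0.07 and -0.35 ± 0.06. Their calls ended on the ribosomal scale, and those of Cyp51, Msmo1 and Sc5d held. Among targets of the sterol sensor LXR and related genes, Mylip, encoding a ubiquitin ligase that limits lipoprotein uptake, had 54.5, 52.0 and 51.8 CPM in KO libraries, against 35.3, 37.6 and 35.9 CPM in WT libraries (log2 0.54 ± 0.07), and Nr1h3, encoding LXR alpha, and Srebf1, encoding a factor of fatty acid synthesis, were at 0.38 ± 0.09 and 0.40 ± 0.10, the last a call that ended without replicate 1 of KO and replicate 3 of WT together. Lpl, encoding lipoprotein lipase, was lower (-0.38 ± 0.08). Its call ended on the ribosomal scale. In the list of fatty acid synthesis and LXR targets 6 of 21 tested members were higher and 2 lower, with a median of 0.09.

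Energy and redox genes were mixed. In glycolysis and HIF-1 targets 5 of 24 tested members were higher and 6 lower, with a median (-0.08) that turned positive on the ribosomal scale. Without replicate 1 of KO 3 were higher and 4 lower. Hif1a and Pfkfb3, encoding the oxygen-sensitive factor and an activator of glycolysis, were at 0.38 ± 0.07 and 0.57 ± 0.09, while Pdk1, encoding a kinase that blocks entry of pyruvate into mitochondria, had 99.6, 95.3 and 100.2 CPM in KO libraries, against 145, 139 and 135 CPM in WT libraries (log2 -0.51 ± 0.05). Ldha, encoding lactate dehydrogenase, was lower (-0.32 ± 0.06), and its call ended on the ribosomal scale. Acod1, encoding the enzyme that makes itaconate, was at 0.58 ± 0.07. Among NRF2 targets 8 of 19 were higher and 3 lower, and without replicate 3 of WT 5 were higher. Slc7a11, encoding the cystine importer, was at 0.61 ± 0.09 and Hmox1, encoding haem oxygenase, at -0.32 ± 0.07, a call that ended on the ribosomal scale. Among p53 and stress genes 9 of 26 were higher and 2 lower. Mdm2, encoding the ligase that degrades p53, was at 0.50 ± 0.05. Sesn1, encoding a sestrin, a restraint on mTORC1, had 7.88, 7.59 and 9.34 CPM in KO libraries, against 17.0, 14.9 and 18.5 CPM in WT libraries (log2 -1.03 ± 0.12, edgeR adjusted p = 8.53e-09).

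Transcripts of other cell types were present at low levels and also differed. Immunoglobulin genes were higher in KO as a class: 22 of 39 variable and 7 of 11 constant region genes tested were higher, and none was lower. Igkc, encoding the kappa light chain, had 84.0, 84.4 and 76.3 CPM in KO libraries, against 34.4, 39.4 and 34.6 CPM in WT libraries (log2 1.17 ± 0.10), and Jchain, encoding the joining chain of secreted IgA and IgM, had 16.7, 17.3 and 17.4 CPM in KO libraries, against 4.54, 4.27 and 4.82 CPM in WT libraries (log2 1.91 ± 0.14). Of the 13 tested B and plasma cell markers, 7 were higher and 1 was lower, and their summed level was 441 to 458 CPM in KO and 288 to 309 CPM in WT. B-cell surface genes were mixed: Cd79b was higher (0.48 ± 0.14). Cd79a, encoding the partner chain of Cd79b in the B-cell receptor, was under 2 CPM in every library and did not pass (-0.14 ± 0.34), and Ms4a1, encoding CD20, was lower (-0.83 ± 0.25). The call of Ms4a1 ended on the ribosomal scale and without replicate 1 of KO or replicate 1 of WT. Variable region genes are close relatives of each other, so single variable genes are not named. Vpreb1 and Igll1, the surrogate light chain genes of B-cell precursors, were at 0 in all 6 libraries.

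Among markers of fibroblasts and stroma, 12 of 17 tested were higher and none lower, with a median of 0.83 and a summed level of 92.1 to 99.7 CPM in KO and 52.5 to 57.6 CPM in WT. Col1a2, a fibrillar collagen gene, had 10.6, 9.53 and 9.92 CPM in KO libraries, against 4.94, 5.12 and 4.44 CPM in WT libraries (log2 1.06 ± 0.13, edgeR adjusted p = 6.99e-08), and Dcn, encoding the matrix proteoglycan decorin, had 5.01, 5.28 and 4.61 CPM in KO libraries, against 2.18, 2.08 and 2.28 CPM in WT libraries (log2 1.19 ± 0.17). The groups did not overlap in either. Neutrophil and granulocyte markers summed to 697, 701 and 799 CPM in KO and 673, 691 and 770 CPM in WT, and 6 of 16 were higher, among them the granule genes named above. Without replicate 1 of KO 3 were higher. S100a8 and S100a9, abundant neutrophil proteins, did not pass (-0.08 ± 0.12 and -0.07 ± 0.11). Markers of T and natural killer cells summed to 28.6, 30.1 and 27.3 CPM in KO and 13.8, 17.5 and 17.4 CPM in WT. The T-cell receptor complex genes Cd3e, Cd3g and Cd3d were too low to be tested, and Prf1, encoding perforin, was at 0. Cd4, encoding a co-receptor of T cells, had 22.5, 22.2 and 20.5 CPM in KO libraries, against 8.08, 9.14 and 6.66 CPM in WT libraries (log2 1.45 ± 0.11). It made up most of the summed level in each KO library. Of the 7 T and natural killer cell markers tested, 1 (Cd4) was higher and 1 (Cd8a) was lower. Of 10 tested dendritic cell markers 2 were higher and 4 lower (2 without replicate 1 of KO or replicate 3 of WT), among the lower Siglech and Clec9a of plasmacytoid and cross-presenting cells (-0.95 ± 0.17 and -1.39 ± 0.30). Markers of dendritic cells summed to 768, 821 and 860.3 CPM in KO and 725, 719.9 and 792 CPM in WT. Markers of mast cells and basophils summed to 9.6 to 11.5 CPM in KO and 10.2 to 11.4 CPM in WT, with Mcpt4 and Tpsab1, encoding mast cell proteases, at 0. The part of such cells in the differences of other genes was not tested.

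Libraries taken 0.5 h after ActD was added to parallel R837 cultures gave the same genotype comparison in separate libraries. There 3626 genes (26.4% of those tested) were called, with 13.7% higher and 12.7% lower. Of the genes higher at 3 h, 69.6% were called higher again, which was 77.2% of the higher calls after ActD, and 6 were called lower. Of the genes lower at 3 h, 66.2% were called lower again, which was 65.7% of the lower calls after ActD, and 0 were called higher. The labels do not say whether the cultures came from the same mice. The test of the difference between these 2 genotype comparisons called 3 genes (0.0218%), Ctsg, Car4 and Rab44. Among the 6 libraries without ActD each of these was highest in replicate 1 of KO, and after ActD Ctsg averaged 3.6 ± 0.629 CPM in KO and 14.9 ± 21.3 CPM in WT (SD, n = 3 each). All 11 NF-kB list genes, 29 of the 30 lower mitosis genes and 17 of the 18 lower cholesterol genes were called in the same direction again.

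At 7 h of R837 the genotype comparison called 4201 genes (30.6%), with 15.5% higher and 15.1% lower. Of the genes higher at 3 h, 48.2% were higher again (47.3% of the higher calls at 7 h) and 90 were lower. Of the genes lower at 3 h, 44.5% were lower again (37.2% of the lower calls at 7 h) and 48 were higher. The genotype difference changed between 3 h and 7 h in 1690 genes (12.3%) by the test of the difference itself, 5.45% of genes upward in KO relative to WT and 6.84% downward. The difference was larger at 7 h in 6 of the 11 interleukin and growth factor genes higher at 3 h, in 2 of the 7 TNF superfamily ligands and in 4 of the 8 chemokines. Among these, Il1a was at 3.05 ± 0.13 at 7 h against 1.19 ± 0.12 at 3 h, Tnfsf15 at 3.76 ± 0.16 against 1.40 ± 0.14, and Cxcl3 at 3.05 ± 0.10 against 1.46 ± 0.09. The tests of these changes passed, with differences of 1.87 ± 0.17, 2.36 ± 0.22 and 1.59 ± 0.13 between the times. Tnfsf9 and Adora2a were at 1.30 ± 0.07 and 2.09 ± 0.10 at 7 h against 1.39 ± 0.07 and 1.87 ± 0.10 at 3 h, and the tests of their change did not pass (adjusted p = 0.636 and 0.347 in edgeR).

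Some genes changed side or lost their difference. Il10 was at 1.39 ± 0.10 at 7 h against -0.25 ± 0.09 at 3 h, Cxcl10 at 0.52 ± 0.08 against -0.62 ± 0.07, and Rhoh at 0.32 ± 0.11 against -0.79 ± 0.11. These 3 were lower in KO at 3 h and higher at 7 h, but the 3 h call of Il10 ended under RLE size factors and in DESeq2. Rhob was at -0.05 ± 0.10 at 7 h against 1.29 ± 0.09 at 3 h, and Irf7 and Oas3 were at 0.07 ± 0.07 and 0.01 ± 0.10 at 7 h, against 0.61 ± 0.07 and 0.66 ± 0.10 at 3 h. The early excess of these transcripts was not detected at 7 h. Sesn1 was lower at both times, more so at 7 h (-2.57 ± 0.13 against -1.03 ± 0.12). By list, 11 of 11 NF-kB genes were higher at both times with 7 of them differing more at 7 h, 18 of 18 cholesterol genes were lower again, and 24 of 30 mitosis genes were. Of the 11 interferon list genes higher at 3 h, 6 were higher at 7 h and 5 differed less there.

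**Figure D5:**
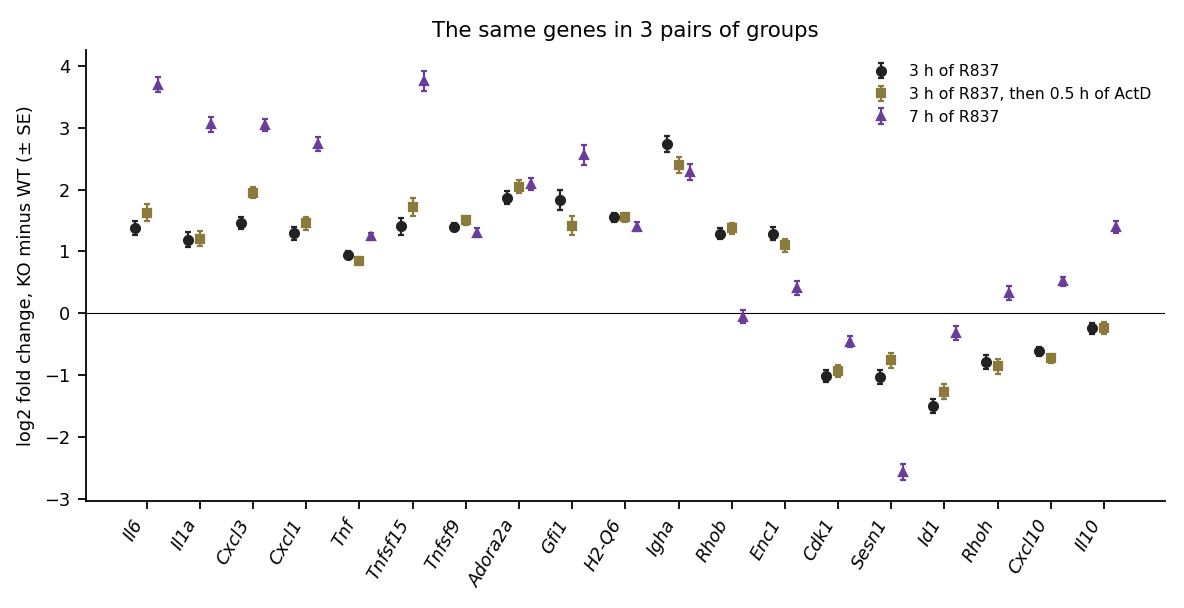
Log2 fold change of KO over WT ± standard error (vertical axis) of 19 genes after 3 h of R837 (black circles), 3 h of R837 and then 0.5 h of ActD (ochre squares), and 7 h of R837 (purple triangles). The test of the difference between the first 2 points passed for none of the 19, while Il6, Il1a, Cxcl3, Cxcl1 and Tnfsf15 are higher at 7 h and Rhob falls to -0.05 there. Il10, Cxcl10 and Rhoh are below 0 at 3 h and above 0 at 7 h.

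Genes near N4bp1 on chromosome 8 were also examined. Of 43 other tested genes within 2 Mb of it, 6 were higher and 7 lower in KO, beside 15.2% and 12.6% of all genes tested. Nod2, encoding a sensor of bacterial cell walls, was at 0.50 ± 0.10, and Tent4b, encoding a poly(A) polymerase, at 0.39 ± 0.09. Syce2, encoding a protein of meiotic chromosome pairing, had 13.98, 14.9 and 15.6 CPM in KO libraries, against 23.1, 20.9 and 21.8 CPM in WT libraries (log2 -0.57 ± 0.10). The transcripts nearest to N4bp1 on either side, Siah1a, encoding a ubiquitin ligase, and the low lincRNA 2010110E17Rik, did not pass (0.07 ± 0.12 and 0.79 ± 0.57).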

How the data were processed

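RNA of bone-marrow-derived macrophages was sequenced per the labels' protocols as single-end 50 bp reads on a HiSeq4000 from TruSeq RNA v2 libraries, a kit that does not mark strand. Reads were aligned with GSNAP to GRCm38, per the submitters' processing notes. No source used here gives the counting program, its annotation or its strand setting. In the deposited files the authors give, per gene, a count of reads, an RPKM value and a summed exonic width. RPKM was used only to check depth: the counts made up 91.21 to 91.44% of the total that RPKM imply in the 6 libraries compared. Genes with near-identical copies elsewhere in the genome were almost uncounted.

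Counts of all 36 libraries were fitted with edgeR 4.0.16 (R 4.3.3, limma 3.58.1) in a model with 12 groups of 3, after filterByExpr and TMM normalization. KO and WT at 3 h of R837 were compared with the quasi-likelihood F test and Benjamini-Hochberg adjustment over 13748 genes, with a threshold of 0.05. The other groups entered the filter, the normalization and the estimate of dispersion. With the compared libraries alone 12835 genes were tested and 3206 called. Total counts were 20.3 to 46.1 M per library, and the biological coefficient of variation was 7.48%. DESeq2 1.42.0 was an alternative. On simulated counts for 13571 genes, 5 of 173 calls were false (2.89%) and every true call had the right sign. The simulated counts had the same dispersion in every gene, no width trend and no library that stood apart. This share therefore does not measure false calls in the real comparison.

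The naming rule took N4bp1, 9 fixed cytokines, and the 20 largest rises and falls with a mean of at least 5 CPM and groups apart. Under the same conditions it took 8 each way by the CPM difference per kb. It also took up to 6 called members per list and direction by p, called genes within 2 Mb, and markers of a library that stood apart. Not all genes that met this rule are named in the text. Genes outside this rule, among them those that did not pass, were chosen after their values were seen. The members and lists were chosen with earlier results of these data known. The labels describe separate mice, but not which mice were shared between conditions. No pair of libraries agreed within sampling noise. Promoters are RefSeq's (GRCm38.p6), and 3′ UTRs were read from the GRCm38 annotation.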

Additional observations from a re-analysis of the deposited data

Results flagged for a closer look

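The genotype difference (log2 of KO over WT) differed between 7 h and 3 h of R837 by edgeR's test of the difference itself in 19 of the genes chosen for this comparison, and other named genes passed the test as well. The value at 7 h minus that at 3 h was 2.36 for Tnfsf15, 2.31 for Il6, 1.91 for Csf3, 1.87 for Il1a, 1.69 for Il1b, 1.63 for Cxcl2, 1.62 for Inhba, 1.59 for Cxcl3, 1.44 for Cxcl1, 0.722 for Gfi1 and 0.295 for Tnf, all of which were higher in KO at both times. It was 1.64 for Il10, 1.13 for Cxcl10 and 1.12 for Rhoh, which were lower in KO at 3 h and higher at 7 h. The 3 h call of Il10 lay near the threshold and ended under RLE size factors and in DESeq2. It was 1.18 for Id1 and 0.556 for Cdk1, whose deficit in KO at 3 h was smaller at 7 h, and -1.54 for Sesn1, whose deficit was larger. It was -1.34 for Rhob and -0.883 for Enc1, which encodes an actin-binding protein, both higher in KO at 3 h.

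Between the ActD libraries at 0.5 h and those at 3 h without ActD, the genotype difference differed in 3 genes. The value was -4.2 for Ctsg, -4.77 for Rab44, which encodes a large Rab GTPase, and -11.1 for Car4, which encodes a carbonic anhydrase. Among the 6 libraries compared at 3 h, replicate 1 of KO held the highest level of each, for Car4 8.68 CPM against 0.513 and 0.165 CPM in the other KO libraries. After ActD the WT group was the higher one: Ctsg averaged 3.6 ± 0.629 CPM in KO and 14.9 ± 21.3 CPM in WT, Rab44 0.518 ± 0.188 CPM in KO and 2.35 ± 3.11 CPM in WT, and Car4 0.207 ± 0.358 CPM in KO and 7.96 ± 12.9 CPM in WT (SD, n = 3 each). The value for Car4 is a fitted one that depends on the prior count and is not a bound.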

How the results depend on the processing

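No paired analysis was possible because the labels give the libraries no replicate numbers. The count of genes called (3818, 2087 higher and 1731 lower) ranged from 2202 to 4268 when 1 library was left out (1253 to 2326 higher, 949 to 1942 lower), with 2202 (1253 higher, 949 lower) without replicate 1 of KO and 2375 (1292 higher, 1083 lower) without replicate 3 of WT. Without both, a choice made after seeing the data, it was 1484 (807 and 677). At an adjusted p below 0.01 it was 2173 (1245 and 928). On the ribosomal scale 3908 were higher and 409 lower, the cause being the shift of 0.208 in every gene by construction. With RLE size factors the split was 2227 and 1548, with the width trend removed 1633 and 1850, and DESeq2 called 3847 in all. Of the calls, 95.2% remained under RLE, 95.3% in DESeq2, 79.3% with the width trend removed, 65.4% on the ribosomal scale and 36.8% without the 2 libraries. Of 264 genes tracked (all called but Il12b), none reversed in the settings run. Of these, 50 lost their call without the 2 libraries, 29 on the ribosomal scale and 10 with the width trend removed. The other named genes that did not pass were not tracked, and small negative values among them turn positive with the ribosomal shift. Without the 2 libraries, the members called higher were 4 TNF superfamily ligands, 6 of the TLR and 6 of the IKK list, 3 ribonuclease and decay factors, 7 early response factors, 5 phosphatases and SOCS, 9 receptors and 3 NRF2 targets, and those called lower were 3 of the interferon list and 0 of the prostaglandin list, while 11 NF-kB genes remained higher. Some list medians moved by over 1.5 times: that of the interferon list (0.10) was 0.02 without replicate 1 of WT, that of the caspase-8 list (0.07) was 0.01 with the width trend removed, that of the LXR list (0.09) was -0.02 without the 2 libraries, and that of the prostaglandin list (-0.05) was 0.04 without replicate 1 of KO. The TLR median (0.23) was 0.09 and the matrix protease median (0.25) was 0.45 without the 2 libraries.

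The 3 genes whose difference changed under 0.5 h of ActD became 27 with no filter on low counts, 0 to 4 when 1 library was left out, and 0 on the ribosomal scale, with a stricter filter, at an adjusted p below 0.01, with the compared libraries alone, without the 2 libraries and in DESeq2, while edgeR gave 450 at an unadjusted p below 0.05. The 1690 that changed at 7 h became 1066 at an adjusted p below 0.01 and 1118 without the 2 libraries, and 1289 to 1954 when 1 library was left out. The cause of these moves was not tested. The calls of Lta, Tnfsf11 and Cd70, each under 2 CPM, ended when single libraries were left out, as did those of the more abundant Nfkbia, Il1b, Casp8 and Zc3h12a, and the part of depth was not tested.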
